A study of Mus musculus with 13 samples.

Results

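The 44 genes described here encode proteins that copy DNA in S phase or that carry out mitosis, and they were taken from a list of gene symbols matched to the Ensembl mouse identifiers of the count table. All 44 were found among its 33618 identifiers, and all 44 were among the 16753 genes with enough counts to be tested. Whole parametrial WAT (pmWAT, the visceral fat beside the uterus) of female mice was sequenced as mRNA in 1 library per mouse, 7 labelled *Lmna* fl/fl and 6 labelled *Lmna* iADKO. Mice of both genotypes carry loxP sites in both copies of *Lmna*, the gene of lamins A and C, and both received tamoxifen at 50 mg/kg on 5 consecutive days at 12 to 14 weeks of age, with tissue taken 2 weeks later. The iADKO mice also carry *Adipoq*-CreERT2, a tamoxifen-activated Cre recombinase under the adiponectin promoter, whereas the control mice carry no Cre. That Cre is made in adipocytes, whereas the libraries hold RNA of every cell type of the tissue, including dividing cells in which *Lmna* is intact.

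A dividing cell first licenses its replication origins, when Cdc6 and Cdt1 load the ring-shaped MCM helicase onto DNA, and then opens the origins and copies DNA behind the sliding clamp PCNA. Entry into mitosis is driven by Cdk1 bound to B-type cyclins, after which kinesins and microtubule-binding proteins build the spindle, the checkpoint kinases hold anaphase until every kinetochore is attached, and a contractile ring divides the cell. E2F factors switch on many of the S phase genes, and the MuvB complex, with the DREAM repressor in resting cells or B-MYB and FOXM1 in dividing ones, controls many of the mitosis genes through a promoter element called the CHR. Mature adipocytes do not normally divide, and the dividing cells of adipose tissue are known to include progenitors, endothelial cells, macrophages and lymphocytes. In bulk libraries, a change in the number of dividing cells and a change in the RNA of these genes per cell cannot be told apart.

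Between 18854223 and 19776491 reads were counted on genes per library. *Lmna* itself was at 74.7 to 98.5 CPM (TMM-normalized counts scaled to the library's size) in the fl/fl libraries and at 80.1 to 109 CPM in the libraries labelled iADKO, a log2 fold change of 0.19 ± 0.0789 (SE, adjusted p = 0.0785), so the genotype labels rest on the submitters. These counts cover the whole gene and the whole tissue, and do not show whether the floxed exons were lost in adipocytes. All 8 adipocyte markers were called lower in iADKO, and their summed level was 16320 to 25180 CPM in fl/fl and 10440 to 17960 CPM in iADKO. By these markers and by macrophage markers, fl/fl replicate 5 and iADKO replicate 6 were the libraries nearest the other genotype. The samples are separate mice, and the spread given is between them.

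Of the 44 cell cycle genes, 23 were higher in iADKO, 1 was lower and 20 did not pass the test (edgeR's quasi-likelihood test, threshold of 0.05 on the adjusted p). Among all genes tested, 30.5% were called, 14.1% higher and 16.3% lower. The median log2 fold change was 0.42 over the 44 genes, with 41 of them above 0, and 0.0333 over all genes tested, of which 54.7% were above 0. CPM values did not overlap between the genotypes for 5 members, all of them higher in iADKO, namely *Mcm2*, *Mcm3*, *Mcm5*, *Pcna* and *Stmn1*. Over all genes tested, 2.71% did not overlap and were higher and 3.93% did not overlap and were lower. Without fl/fl replicate 5 and iADKO replicate 6, 26 members were higher and 2 were lower, in a fit that called 42.9% of all genes, 19.6% higher and 23.3% lower. Each library name carries a number, and these numbers were grouped into series for this comparison. What the numbers mark is not given in the labels. With a term for the series, 10 members were higher and 0 were lower, and 11.9% of all genes were called, 4.68% higher and 7.17% lower. The 10 were the 6 MCM genes, *Pcna*, *Cdk1*, *Aurkb* and *Stmn1*, whereas *Aurka*, *Birc5*, *Bub1b*, *Ccna2*, *Ccnb1*, *Cdc45*, *Cdc6*, *Cenpa*, *Ckap2*, *Mki67*, *Nusap1*, *Rrm1*, *Tpx2* and *Uhrf1* lost their calls. Some of those series hold 1 genotype only and add nothing to the genotype difference in that fit. The difference rests on a series of 3 fl/fl and 2 iADKO libraries and another with 2 of each. The number of iADKO replicate 1 lies apart from the others in the larger of these series. A grouping that places this library elsewhere was not tried. The permutation p-values below take no account of the series. On total counts without TMM, 36 members were higher and 0 lower, in a fit that called 51.8% of all genes, 44.2% higher and 7.62% lower. The median of all genes also moved to 0.236, and 85.3% of all calls were higher, against 46.4% with TMM. The members' median stood 0.39 above that of all genes under either scaling. A change of scaling moves all genes nearly alike, so this gap could hardly change.

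**Figure D1:**
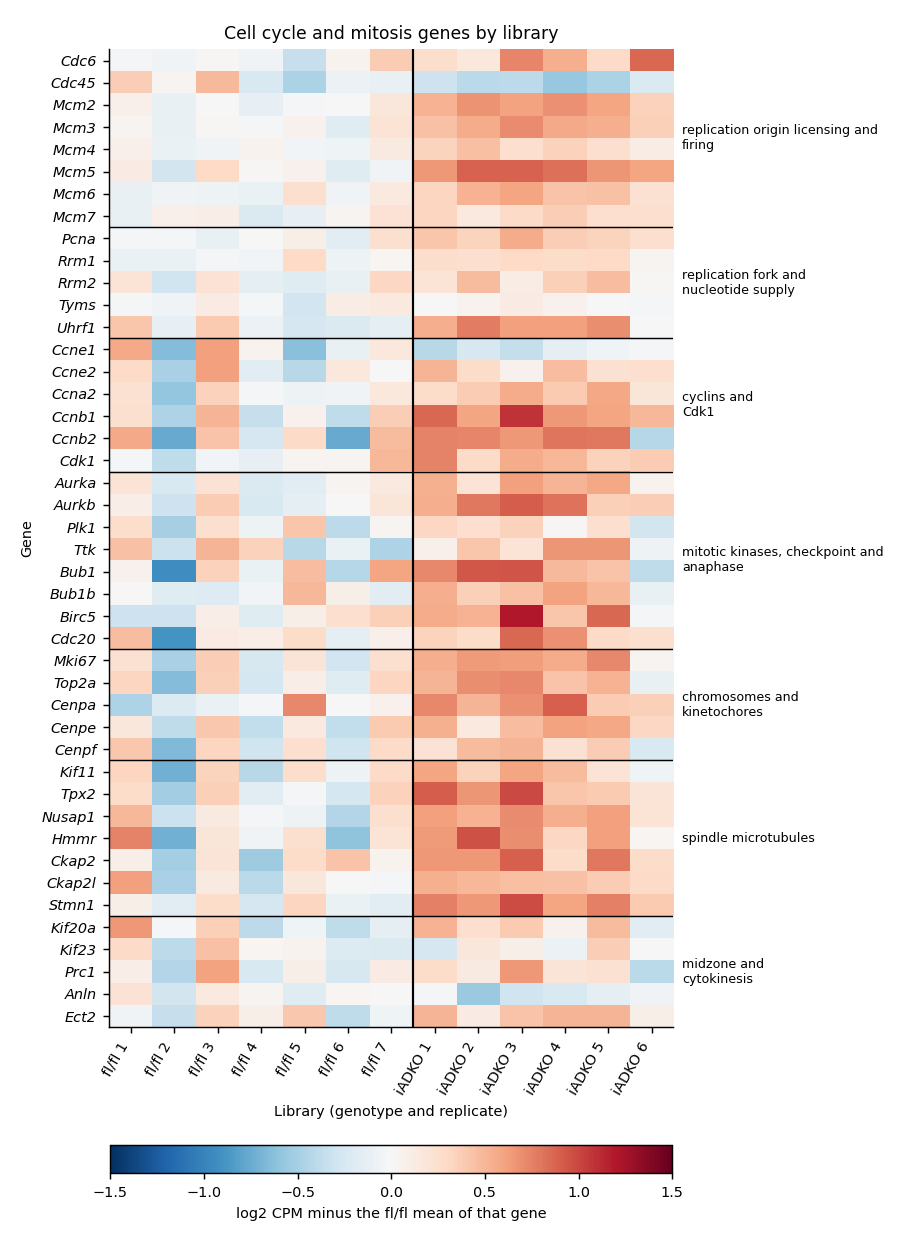
Heat map of the 44 genes (rows, grouped by role) in the 13 libraries (columns), coloured by log2 CPM minus that gene's fl/fl mean. Most members are above the fl/fl mean in iADKO replicates 1 to 5, fl/fl replicate 2 is below it for all but 2 members, and *Cdc45*, *Ccne1* and *Anln* run the other way.

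The members were RNAs of low level in this tissue. Per kilobase of annotated exon, their median level in fl/fl was 0.698 CPM per kb, against 3.26 CPM per kb over the 16681 genes tested with a length, and 4 of the 44 were above that median. *Pcna* had the highest level per length of the members, at 17.1 CPM per kb, and *Ttk*, a spindle checkpoint kinase, the lowest, at 0.132 CPM per kb. Counts per library reached 1254 for *Pcna* and went down to 8 for *Bub1*, and the median SE of the log2 fold change was 0.0732 in the licensing group and 0.183 in the group of mitotic kinases.

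All 8 genes of replication licensing and firing passed the test, 7 of them higher and 1 lower, with a median log2 fold change of 0.46. All 6 subunits of the MCM2 to MCM7 helicase were higher, with log2 fold changes between 0.27 for *Mcm7* and 0.75 for *Mcm5* and a median of 0.48. Their summed level was 95.46 to 112.5 CPM in fl/fl and 122.5 to 143.7 CPM in iADKO, without overlap.

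*Mcm2* (ENSMUSG00000002870, GRCm39 chr6:88860452-88875762, minus strand) encodes an MCM subunit that also binds histones. It was at 9.29, 10.1 and 11.4 CPM (lowest, median and highest) in fl/fl and at 12.9, 15.4 and 16.4 CPM in iADKO. All 6 iADKO libraries were above all 7 fl/fl libraries, and iADKO replicate 6 was the lowest of its genotype. Mean CPM was 10.1 ± 0.722 (SD, n = 7) in fl/fl and 15.1 ± 1.26 (SD, n = 6) in iADKO, and the log2 fold change was 0.58 ± 0.0716 (SE, adjusted p = 0.000256, exact permutation p = 0.000583). That permutation p is the smallest that 7 against 6 libraries can give. *Mcm2*, *Mcm3*, *Mcm5*, *Mcm6*, *Pcna* and *Stmn1* are the members with the smallest adjusted p in these libraries, so their permutation p-values add no independent support.

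*Mcm5* (ENSMUSG00000005410, chr8:75836140-75856231, plus strand), the subunit that forms the gate of the MCM ring with MCM2, had the highest fold change of the 44 genes. Its levels were 6.59, 8.11 and 9.88 CPM in fl/fl and 12.1, 13.5 and 14.9 CPM in iADKO. Again no library of one genotype reached the range of the other. The log2 fold change was 0.75 ± 0.0961 (SE, adjusted p = 0.000266, exact permutation p = 0.000583).

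*Mcm3* (ENSMUSG00000041859, chr1:20870791-20890536, minus strand) was at 14.3, 16.4 and 18.8 CPM in fl/fl and at 20.9, 23.8 and 26.7 CPM in iADKO. The genotypes did not overlap, and the log2 fold change was 0.53 ± 0.0715 (SE, adjusted p = 0.000321, exact permutation p = 0.000583). *Mcm6* (ENSMUSG00000026355, chr1:128259311-128287516, minus strand) was at 20.3, 21.1 and 25.9 CPM in fl/fl and at 25.7, 29.7 and 33.1 CPM in iADKO. Only iADKO replicate 6 and fl/fl replicate 5 overlapped for *Mcm6*, whose log2 fold change was 0.42 ± 0.0747 (SE, adjusted p = 0.00134, exact permutation p = 0.00175). The remaining subunits rose less, *Mcm4* by a log2 fold change of 0.30 ± 0.0611 (SE, adjusted p = 0.00316) and *Mcm7* by 0.27 ± 0.0689 (SE, adjusted p = 0.0107). *Mcm7* shares its locus with *Ap4m1* and *Cops6* on the opposite strand, and the strand setting of the counting is not given in the sources used here.

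*Cdc6*, which loads MCM onto origins, was at 1.82 to 3.07 CPM in fl/fl and at 2.61 to 4.32 CPM in iADKO, a log2 fold change of 0.50 ± 0.15 (SE, adjusted p = 0.0218). The *Cdc6* call was lost without iADKO replicate 3 (adjusted p = 0.0545), with no filter on low counts, and without fl/fl replicate 5 and iADKO replicate 6 (log2 fold change 0.34, adjusted p = 0.0775). It was 1 of 3 members for which iADKO replicate 6 was the highest of its genotype. *Cdc45*, a partner that turns the loaded MCM ring into the active helicase, was at 5.11 to 10.1 CPM in fl/fl and at 4.80 to 6.14 CPM in iADKO, a log2 fold change of -0.43 ± 0.145 (SE, adjusted p = 0.0361). Its spread lay in fl/fl, where replicates 1 and 3 were the highest at 9.31 and 10.1 CPM. The *Cdc45* call passed the threshold in 5 of the 13 fits that left out 1 library, with adjusted p up to 0.078, and was lost on total counts without TMM. *Cdc45* overlaps *Ufd1* on the opposite strand.

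The promoters of the members were searched because 41 of the 44 had a log2 fold change above 0 here. In addition, CHR, CCAAT and E2F elements are textbook features of such genes. The window ran from 250 bases before to 50 bases after the start of the canonical GENCODE transcript on GRCm39, both strands were searched, and 14133 protein-coding genes tested served as the comparison. A CCAAT box (CCAAT) was found in 31 of 44 members (70.5%) and in 39.1% of all. A CHR (TTTGAA or TTCGAA) was found in 19 members (43.2%) and in 15.8% of all. An E2F site (TTTCCCGC, TTTGGCGC, TTTCGCGC or TTTGCCGC) was found in 7 members (15.9%) and in 3.64% of all. The E2F letters were in 4 of the 6 MCM promoters and in 2 of the 29 members that act in mitosis, whereas the CHR letters were in 1 of the 6 MCM promoters and in 17 of those 29. These matches are a description of the letters in the window. In the 250 bases before the start alone, the CCAAT box was in 23 of 44 members and in 35.5% of all. The CHR was there in 11 of 44 members and in 14.3% of all, and the E2F site in 4 of 44 and in 2.95%. The promoters of *Mcm2* and *Mcm5*, the subunits with the largest fold changes, are printed over those 250 bases, with matched letters in capitals.
Mcm2 (chr6:88875763-88876012, minus strand): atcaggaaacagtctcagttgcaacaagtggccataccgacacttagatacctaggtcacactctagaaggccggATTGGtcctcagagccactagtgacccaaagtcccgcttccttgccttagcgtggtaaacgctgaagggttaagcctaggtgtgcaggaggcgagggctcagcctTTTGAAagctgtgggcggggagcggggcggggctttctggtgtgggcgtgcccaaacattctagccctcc
Mcm5 (chr8:75835890-75836139, plus strand): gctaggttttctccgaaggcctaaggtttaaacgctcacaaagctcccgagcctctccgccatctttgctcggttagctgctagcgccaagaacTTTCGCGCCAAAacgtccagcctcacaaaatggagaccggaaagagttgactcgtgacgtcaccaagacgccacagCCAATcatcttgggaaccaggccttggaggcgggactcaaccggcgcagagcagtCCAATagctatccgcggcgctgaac
In *Mcm2* the capitals mark a CCAAT box on the reverse strand at position -175 and a CHR at -70, counted back from the transcript start. In *Mcm5* they mark a pair of overlapping E2F matches at -156 and -152, on opposite strands, and CCAAT boxes at -80 and -25.

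Of the 5 genes of the replication fork and nucleotide supply, 3 were higher and none was lower, with a median log2 fold change of 0.27. *Pcna* (ENSMUSG00000027342, chr2:132091082-132095234, minus strand), the clamp that tethers DNA polymerase, was at 36.5, 40.3 and 48.2 CPM in fl/fl and at 48.9, 52.2 and 60.3 CPM in iADKO. The genotypes did not overlap, with fl/fl replicate 7 just under iADKO replicate 6. The log2 fold change was 0.38 ± 0.0663 (SE, adjusted p = 0.00133, exact permutation p = 0.00117).

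*Uhrf1*, which carries DNA methylation over to newly copied strands, was at 4.30, 4.72 and 6.90 CPM in fl/fl and at 5.16, 7.93 and 8.82 CPM in iADKO. Replicate 6 was the lowest iADKO library, and the other 5 were above every fl/fl library. It rose by 0.55 ± 0.149 on the log2 scale (SE, adjusted p = 0.0138). Ribonucleotide reductase, the enzyme that makes deoxynucleotides, has a large and a small subunit among the members. The large subunit *Rrm1* passed the test at 0.24 ± 0.0683 (SE, adjusted p = 0.0186), and *Rrm2*, the small subunit made in S phase, had 0.27 ± 0.127 (SE, adjusted p = 0.119). *Tyms*, thymidylate synthase, had a log2 fold change of 0.0335 ± 0.0856 (SE, adjusted p = 0.79).

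Among cyclins and *Cdk1*, 3 of 6 were higher, with a median log2 fold change of 0.43. *Ccnb1* (ENSMUSG00000041431, chr13:100915153-100923116, minus strand) encodes cyclin B1, the partner of CDK1 at mitotic entry. It was at 0.988, 1.47 and 2.02 CPM in fl/fl and at 2.01, 2.20 and 3.08 CPM in iADKO, from 18 to 64 counts per library. Only fl/fl replicate 3 and iADKO replicate 6, at 2.02 and 2.01 CPM, overlapped. The log2 fold change was 0.72 ± 0.19 (SE, adjusted p = 0.0116, exact permutation p = 0.00291).

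*Cdk1* (ENSMUSG00000019942, chr10:69170976-69236595, minus strand), the mitotic kinase itself, was at 2.36, 3.05 and 4.42 CPM in fl/fl and at 3.83, 4.24 and 5.25 CPM in iADKO. The highest fl/fl library, replicate 7, lay above 4 of the 6 iADKO libraries, whereas the other 6 lay below all of them. The log2 fold change was 0.47 ± 0.135 (SE, adjusted p = 0.0187, exact permutation p = 0.00466). *Cdk1* lies opposite *Ank3*. *Ccna2*, cyclin A2 of S and G2 phase, rose by 0.38 ± 0.136 on the log2 scale (SE, adjusted p = 0.0448), a call that held in 4 of the 13 fits that left out 1 library.

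The remaining cyclins did not pass. *Ccnb2* (cyclin B2) had a log2 fold change of 0.54 ± 0.27 (SE, adjusted p = 0.144), with iADKO replicate 6 at 1.13 CPM and the other 5 between 2.50 and 2.78 CPM, above all fl/fl libraries. The G1/S cyclins E differed in sign, with *Ccne2* at 0.27 ± 0.174 (SE, adjusted p = 0.252) and *Ccne1* at -0.28 ± 0.202 (SE, adjusted p = 0.313). *Ccne1* ranged from 3.73 to 9.13 CPM within fl/fl alone, against 4.43 to 5.84 CPM in iADKO.

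**Figure D2:**
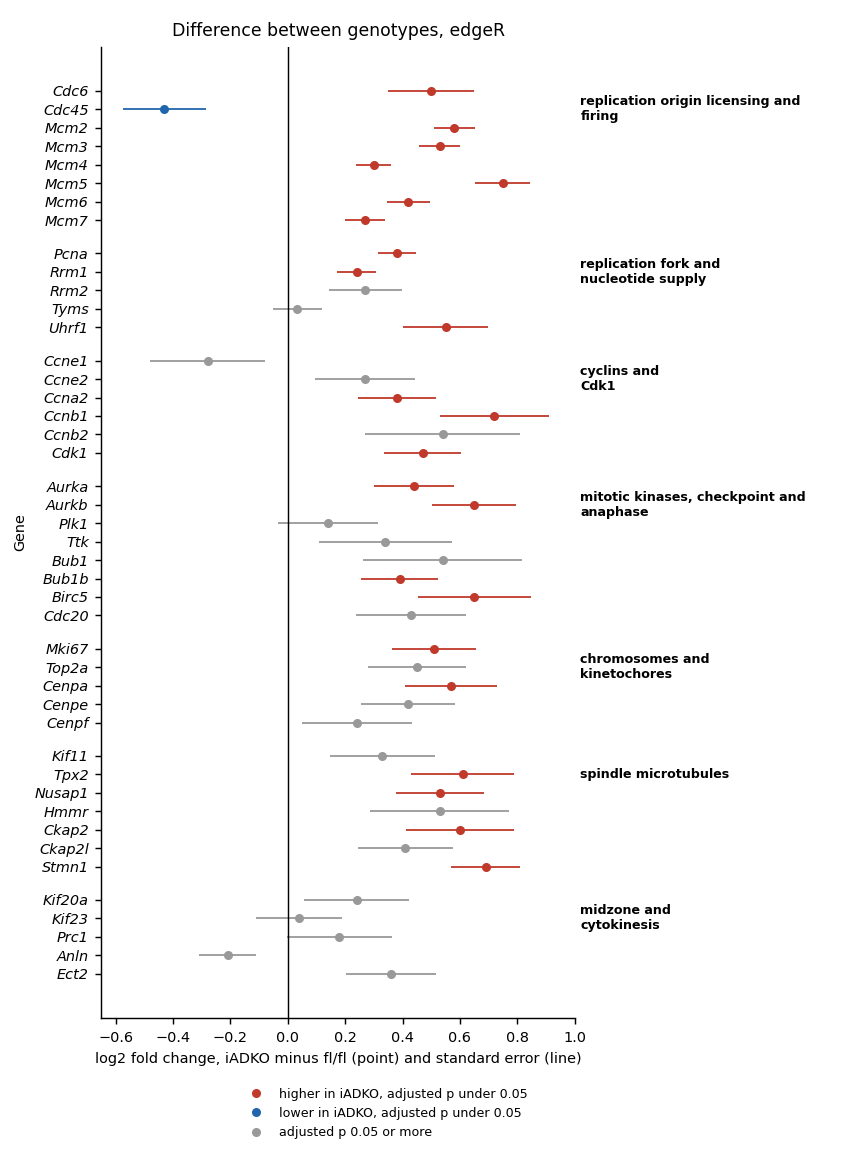
Log2 fold change of each of the 44 genes, iADKO minus fl/fl (points), with its standard error (lines), grouped by role and coloured by the edgeR call. The 23 higher calls lie between 0.24 (*Rrm1*) and 0.75 (*Mcm5*), the only lower call is *Cdc45* at -0.43, and no gene of midzone and cytokinesis was called.

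Of the 8 mitotic kinases, checkpoint and anaphase genes, 4 were higher and none was lower, with a median log2 fold change of 0.44. *Aurkb*, the kinase of the chromosomal passenger complex that corrects wrong kinetochore attachments, was at 1.92 to 3.18 CPM in fl/fl and at 3.11 to 4.62 CPM in iADKO and rose by 0.65 ± 0.146 on the log2 scale (SE, adjusted p = 0.00488). *Birc5* (survivin), a subunit of the same complex, rose by 0.65 ± 0.197 (SE, adjusted p = 0.024), with iADKO replicate 3 the highest at 3.95 CPM. *Aurka*, the kinase of spindle poles, rose by 0.44 ± 0.139 (SE, adjusted p = 0.0275), and *Bub1b* (BUBR1), which inhibits the anaphase-promoting complex, by 0.39 ± 0.135 (SE, adjusted p = 0.0418). The *Aurka* call passed in 7, the *Bub1b* call in 2 and the *Birc5* call in 10 of the 13 fits that left out 1 library.

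The other 4 of this group did not pass. *Bub1*, a checkpoint kinase at kinetochores, had 0.54 ± 0.277 (SE, adjusted p = 0.148), *Cdc20*, the activator of the anaphase-promoting complex, 0.43 ± 0.192 (SE, adjusted p = 0.0997), and *Ttk* (MPS1) 0.34 ± 0.231 (SE, adjusted p = 0.282). *Plk1*, which acts from mitotic entry to cytokinesis, had a log2 fold change of 0.14 ± 0.174 (SE, adjusted p = 0.575), with 1.37 to 2.68 CPM in fl/fl and 1.62 to 2.55 CPM in iADKO. The range of *Plk1* in iADKO lay wholly within that in fl/fl.

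The promoters of *Cdk1* and *Aurkb*, genes of mitosis that were called higher in every fit tried with all libraries or with 1 left out, are shown in the same way, as examples with both CCAAT and CHR letters.
Cdk1 (chr10:69188769-69189018, minus strand): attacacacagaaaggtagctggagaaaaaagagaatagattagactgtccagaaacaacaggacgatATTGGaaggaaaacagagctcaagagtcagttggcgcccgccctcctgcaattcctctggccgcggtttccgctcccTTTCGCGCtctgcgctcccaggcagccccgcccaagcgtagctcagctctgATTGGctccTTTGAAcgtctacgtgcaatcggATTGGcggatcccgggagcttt
Aurkb (chr11:68936217-68936466, plus strand): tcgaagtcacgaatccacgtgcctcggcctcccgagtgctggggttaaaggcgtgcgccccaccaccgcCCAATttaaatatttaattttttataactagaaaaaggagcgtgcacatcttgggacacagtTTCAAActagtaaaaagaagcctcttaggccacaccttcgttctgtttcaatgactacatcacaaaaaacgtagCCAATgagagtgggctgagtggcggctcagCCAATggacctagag
In *Cdk1* the capitals mark CCAAT boxes at -182, -54 and -22, all on the reverse strand, a CHR at -45 and an E2F site at -105. In *Aurkb* they mark CCAAT boxes at -181, -45 and -15 and a CHR on the reverse strand at -119. Both CCAAT and CHR letters were in 17 of the 44 members (38.6%) and in 6.65% of all protein-coding genes tested.

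Among the 5 genes of chromosomes and kinetochores, 2 were higher, with a median log2 fold change of 0.45. *Mki67* (ENSMUSG00000031004, chr7:135291513-135318299, minus strand), the Ki-67 protein that coats mitotic chromosomes and marks cycling cells, was at 12.5, 20.0 and 22.7 CPM in fl/fl and at 18.0, 26.5 and 29.0 CPM in iADKO. Of the 6 iADKO libraries, 5 were above every fl/fl library, and iADKO replicate 6 lay among the controls at 18.0 CPM. The log2 fold change was 0.51 ± 0.146 (SE, adjusted p = 0.018, exact permutation p = 0.00991).

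*Top2a* (ENSMUSG00000020914, chr11:98883769-98915062, minus strand), the topoisomerase that untangles sister chromatids, did not pass the test across all genes. Its levels were 6.64, 11.3 and 13.5 CPM in fl/fl and 9.72, 15.0 and 17.4 CPM in iADKO. The pattern over libraries was that of *Mki67*, with fl/fl replicate 2 the lowest and iADKO replicate 6 among the controls. The log2 fold change was 0.45 ± 0.171 (SE, adjusted p = 0.0599), and the exact permutation p of this 1 gene was 0.0367. It is 1 of 10 genes so tested, with no adjustment.

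*Cenpa*, the histone H3 variant of centromeres, rose by a log2 fold change of 0.57 ± 0.161 (SE, adjusted p = 0.0169). One control, fl/fl replicate 5 at 13.3 CPM, was above 4 of the 6 iADKO libraries for *Cenpa*. *Cenpe*, a kinetochore kinesin, had 0.42 ± 0.164 (SE, adjusted p = 0.0654), and *Cenpf*, a large outer kinetochore protein, 0.24 ± 0.192 (SE, adjusted p = 0.35).

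The spindle genes had the highest median log2 fold change of the role groups, 0.53, with 4 of 7 higher and none lower. *Stmn1* (ENSMUSG00000028832, chr4:134195021-134201882, plus strand), stathmin, which takes microtubules apart and is also expressed outside the cell cycle, was at 5.48, 6.07 and 8.20 CPM in fl/fl and at 8.59, 10.7 and 12.9 CPM in iADKO. The genotypes did not overlap, and the log2 fold change was 0.69 ± 0.12 (SE, adjusted p = 0.00124, exact permutation p = 0.00117). *Tpx2*, the activator of Aurora A on the spindle, rose by 0.61 ± 0.179 (SE, adjusted p = 0.0201), *Nusap1*, which bundles spindle microtubules, by 0.53 ± 0.153 (SE, adjusted p = 0.0187), and *Ckap2*, a microtubule stabilizer, by 0.60 ± 0.189 (SE, adjusted p = 0.0278).

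The 3 spindle genes that did not pass were the kinesin *Kif11* (Eg5), which pushes spindle poles apart, at 0.33 ± 0.184 (SE, adjusted p = 0.179), *Hmmr* (RHAMM), which binds spindle microtubules, at 0.53 ± 0.242 (SE, adjusted p = 0.108), and *Ckap2l*, a spindle protein related to CKAP2, at 0.41 ± 0.166 (SE, adjusted p = 0.0733). *Ckap2l* varied little in iADKO, from 2.31 to 2.77 CPM, whereas fl/fl ran from 1.32 to 2.93 CPM and covered that range.

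None of the 5 genes of the midzone and cytokinesis passed the test, and their median log2 fold change was 0.18. *Ect2*, which activates RhoA at the cleavage furrow, had 0.36 ± 0.156 (SE, adjusted p = 0.0972), *Kif20a*, a kinesin that brings the passenger complex to the midzone, 0.24 ± 0.184 (SE, adjusted p = 0.334) and *Prc1*, which bundles the midzone, 0.18 ± 0.183 (SE, adjusted p = 0.471). *Kif23*, the kinesin of centralspindlin, had 0.0397 ± 0.149 (SE, adjusted p = 0.857). *Anln* (anillin), a scaffold of the contractile ring, had -0.21 ± 0.0994 (SE, adjusted p = 0.115), at 13.4 to 19.0 CPM in fl/fl and 11 to 16.1 CPM in iADKO. The difference between this group and the others was not tested.

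**Figure D3:**
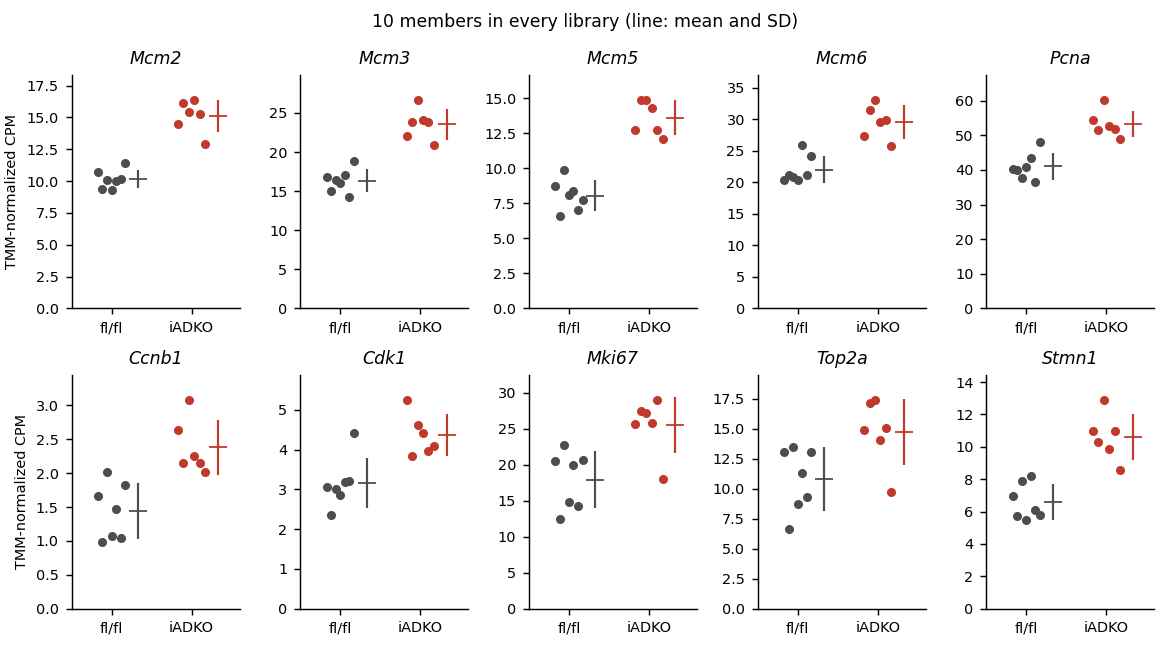
TMM-normalized CPM of 10 members in each library (points, in replicate order), with the mean and SD of each genotype beside them, on axes that start at 0. The iADKO points of *Mcm2*, *Mcm3*, *Mcm5*, *Pcna* and *Stmn1* lie above all fl/fl points, and the lowest iADKO point of *Mki67* and *Top2a*, at 18.0 and 9.72 CPM, is replicate 6.

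Some libraries stood low or high within their genotype for many members at once, and correlations between members were not computed. In iADKO, replicates 1 to 5 had 40 or 41 members above the fl/fl mean, and replicate 6 had 29 and was the lowest of its genotype for 34 members. In fl/fl, replicate 2 had 2 members above the fl/fl mean and was the lowest for 26, whereas replicate 3 had 36 above it. The spread in fl/fl was narrow for licensing genes and wide for mitosis genes. Relative to the fl/fl mean, the licensing group averaged between -0.08 and 0.14 in the fl/fl libraries and between 0.32 and 0.46 in iADKO (log2 CPM). The spindle group averaged between -0.49 and 0.38 in fl/fl and between 0.19 and 0.76 in iADKO, and the midzone and cytokinesis group between -0.30 and 0.38 and between -0.10 and 0.29. The 6 iADKO libraries were all above the 7 fl/fl libraries for the licensing group, 5 of 6 were for the fork, kinase, chromosome and spindle groups, 4 were for cyclins and *Cdk1* and 0 for the midzone group. The SD of log2 CPM was larger in fl/fl than in iADKO for 37 of the 44 members and for 62.9% of all genes tested.

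**Figure D4:**
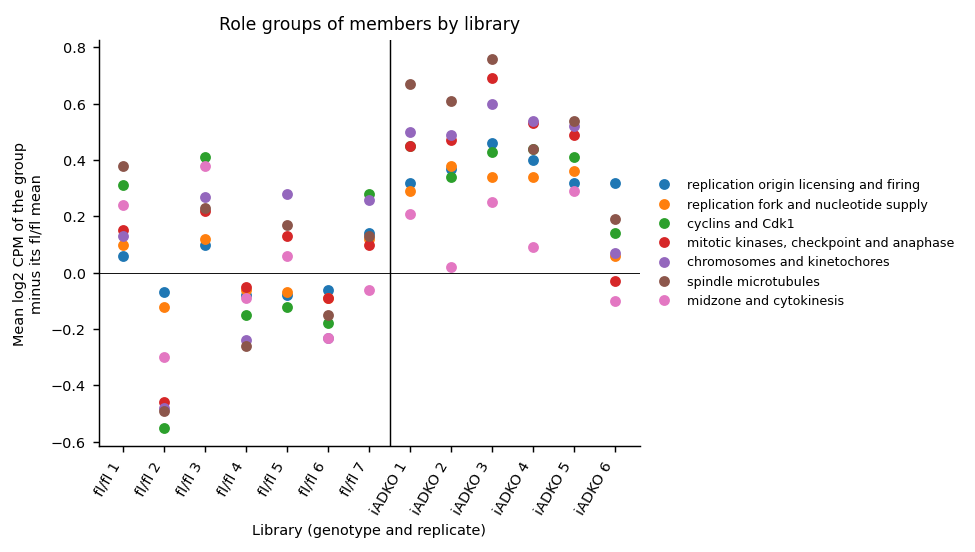
Mean log2 CPM of each role group minus its fl/fl mean (y axis) in each library (x axis), with 1 colour per group. The licensing group is at 0.32 to 0.46 in all 6 iADKO libraries, including replicate 6, in which the kinase group is at -0.03 and the midzone group at -0.10.

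Within the series of library numbers that hold both genotypes, most members kept their direction, and fewer of them were called than over all libraries. In the series with 3 fl/fl and 2 iADKO libraries, the members' median log2 fold change was 0.41, 39 of 44 were above 0, and 10 were called higher and 1 lower, in a fit that called 28.0% of all genes, 12.6% higher and 15.4% lower. In the series with 2 of each, the median was 0.29, 38 were above 0 and 0 of the 16890 genes tested were called by edgeR, with 657 genes, 6 of them members, at an unadjusted p under 0.05. The median of the 6 MCM genes was 0.50 and 0.47 in these series. Members that differed in sign or size between these series included *Cdc45*, at -0.69 and -0.04, *Ccne1*, at -0.63 and 0.17, and *Bub1*, at 0.98 and -0.10, and those differences were not tested.

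Other genes of the pathway were counted in the same fit. Their lists were written by function but with earlier results of these data known, so the counts give no independent support. Of 41 other S phase genes, 17 were higher and 2 lower (46.3% called, against 30.5% of all genes tested), with a median log2 fold change of 0.25. The highest were *Cdt1*, which loads MCM together with Cdc6, at 0.88 ± 0.136 (SE, adjusted p = 0.000638), *Brca1*, which acts in repair of replication-linked breaks, at 0.86 ± 0.19 (SE, adjusted p = 0.00456), and *Mcm10*, which helps start the fork, at 0.66 ± 0.172 (SE, adjusted p = 0.0108). *Cdt1* was at 4.20, 4.61 and 6.41 CPM in fl/fl and at 8.05, 9.08 and 11.3 CPM in iADKO, without overlap. *Gins4*, a subunit of the GINS complex that acts with Cdc45 and MCM in the helicase, was lower at -0.36 ± 0.0812 (SE, adjusted p = 0.00513), a call that was not made on total counts without TMM. *Rfc2*, a clamp loader subunit, had the lowest of the higher calls at 0.19 ± 0.0616 (SE, adjusted p = 0.0352), and it held in 7 of the 13 fits that left out 1 library. With the number-series term, 6 of the 41 were higher, in a fit that called 4.68% of all genes higher. The calls of *Brca1*, *Mcm10* and *Rfc2* were lost there.

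Of 72 other mitosis genes, 70 were tested (*Ska1* and *Cdc25c* were not), and 16 were higher and 1 lower, with a median of 0.30. That is 24.3% called, against 30.5% of all genes tested (14.1% higher and 16.3% lower). Of the 70, 60 had a log2 fold change above 0, against 54.7% of all genes tested. Without fl/fl replicate 2, 10 of these mitosis genes were higher, in a fit that called 11.6% of all genes higher. Without fl/fl replicate 5 and iADKO replicate 6, 24 were, in a fit that called 19.6% of all genes higher. *Sgo1* (shugoshin), which guards centromeric cohesion, had the highest log2 fold change at 0.87 ± 0.218 (SE, adjusted p = 0.00925), followed by *Cks2*, a CDK-binding subunit, at 0.77 ± 0.179 (SE, adjusted p = 0.00618), and *Cdca5* (sororin), which keeps sister chromatids joined, at 0.73 ± 0.193 (SE, adjusted p = 0.0118). The condensin subunits *Ncapd3* and *Smc4* were called in opposite directions, at -0.28 ± 0.061 (SE, adjusted p = 0.00444) and 0.27 ± 0.0754 (SE, adjusted p = 0.0148), of which *Ncapd3* did not pass on total counts without TMM. *Espl1* (separase) had 0.36 ± 0.126 (SE, adjusted p = 0.0414), a call that held in 3 of the 13 fits that left out 1 library. With the number-series term, 3 of the 70 were higher, in a fit that called 4.68% of all genes higher. The calls of *Sgo1*, *Cks2*, *Smc4* and *Espl1* were lost there.

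Among genes that control entry into the cycle, calls went in both directions, with 3 of 8 G1 cyclins and kinases (37.5%) and 4 of 19 E2F, RB and MuvB regulators (21.1%) called, against 30.5% of all genes tested. The G1 cyclins and kinases had a median of 0.10 on the log2 scale, with *Skp2*, an F-box protein that targets p27, higher at 0.55 ± 0.136 (SE, adjusted p = 0.00837), and the D-type cyclins *Ccnd2* and *Ccnd3* lower at -0.57 ± 0.141 (SE, adjusted p = 0.00857) and -0.26 ± 0.0782 (SE, adjusted p = 0.023). *Ccnd2* was at 279 to 552 CPM in fl/fl and 250 to 312 CPM in iADKO. Of the regulators, *E2f8*, a repressor E2F, and *Mybl2* (B-MYB) were higher at 0.59 ± 0.165 (SE, adjusted p = 0.0158) and 0.41 ± 0.134 (SE, adjusted p = 0.0326). *Rb1*, the retinoblastoma protein, and *Lin52*, a MuvB subunit, were lower at -0.35 ± 0.0739 (SE, adjusted p = 0.00371) and -0.45 ± 0.0904 (SE, adjusted p = 0.00257). The median of these 19 was 0.02. On total counts without TMM, *Ccnd3* and *Rb1* no longer passed, and with the number-series term *Skp2*, *Ccnd2*, *Ccnd3*, *E2f8*, *Mybl2* and *Rb1* did not. The *Mybl2* call held in 6 of the 13 fits that left out 1 library.

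The CDK inhibitors moved in both directions. *Cdkn1a* (p21), a p53 target that blocks cyclin-CDK complexes, was at 14.0, 22.0 and 41.2 CPM in fl/fl and at 84.0, 116 and 149 CPM in iADKO, without overlap. Its log2 fold change of 2.19 ± 0.252 (SE, adjusted p = 0.000256), a 4.56-fold rise, was the largest in the pathway lists and larger than that of any member. *Cdkn2c* (p18) and *Cdkn1c* (p57) were lower at -0.66 ± 0.115 (SE, adjusted p = 0.00122) and -0.80 ± 0.236 (SE, adjusted p = 0.0216), and 3 of the 6 tested were not called. *Cdkn2a* had too few counts to be tested. Of 6 checkpoint kinases, *Chek1*, which responds to stalled forks, was higher at 0.67 ± 0.217 (SE, adjusted p = 0.0304), a call that held in 7 of the 13 fits that left out 1 library. With the number-series term, *Chek1* and *Cdkn1c* lost their calls.

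Genes of several cell type marker lists were called, and their part in these results was not tested. Among all genes tested, 14.1% were called higher and 16.3% lower. Of the lists in this paragraph, only the summed T cell level did not overlap between the genotypes. These are RNA levels and not cell counts. By flow cytometry of pmWAT at the same time after tamoxifen, the study reported no difference in total immune cells, macrophages or T cells. Of 9 macrophage markers 8 were higher, with summed levels of 1401 to 2692 CPM in fl/fl and 1912 to 3274 CPM in iADKO. Of 7 T cell markers 4 were higher (22.64 to 36.56 CPM in fl/fl and 39.95 to 46.62 CPM in iADKO), and of 6 B cell markers 2 were higher (22.55 to 61.53 and 40.04 to 92.19 CPM). From a list of 5 germinal centre B cell markers, 3 were tested and all 3 were higher (46.44 to 63.41 and 57.4 to 73.99 CPM). The median over these 3 genes of the mean count per library was 448, against 141 over the B cell markers. Whether their RNA comes from B cells was not tested. Higher too were 2 of 5 plasma cell markers (744.4 to 1840 and 1105 to 2046 CPM), 2 of 5 NK cell markers (5.69 to 12.13 and 11.34 to 14.62 CPM) and 4 of 6 dendritic cell markers (73.26 to 173.7 and 111.0 to 172.0 CPM).

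None of 6 adipose progenitor markers (2406 to 3672 and 2725 to 4084 CPM), 5 neutrophil markers (14.67 to 164.5 and 59.09 to 237.7 CPM), 5 mesothelial markers (311.8 to 650.9 and 279.9 to 754.5 CPM), 6 skeletal muscle markers (17.78 to 376.9 and 11.37 to 209.7 CPM) or 3 erythroid markers tested of 5 (78.14 to 281.3 and 57.56 to 350.2 CPM) was called. Of 6 endothelial markers 2 were lower (770.3 to 1033 and 779.0 to 903.4 CPM), of 6 mural markers 1 was lower (811.7 to 1400 and 924.0 to 1992 CPM), and of 5 epithelial markers tested of 6 there were 2 higher (11.44 to 53.96 and 21.83 to 270.3 CPM), with a median of 0 counts for *Krt5*.

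In fl/fl replicate 5 the macrophage markers averaged 0.64 log2 CPM above the fl/fl mean, the 44 members 0.05 and the MCM genes 0.03. The role groups there ran from -0.12 for cyclins and *Cdk1* to 0.28 for chromosomes and kinetochores. In fl/fl replicate 3 the macrophage markers averaged -0.24 relative to that mean, the 44 members 0.24 and the chromosome and kinetochore group 0.27. In iADKO replicate 6 the macrophage markers averaged 0.16 above the fl/fl mean, the 44 members 0.11 and the MCM genes 0.32. The role groups there ran from -0.10 for the midzone and cytokinesis group to 0.32 for the licensing group. The members' average in iADKO replicate 6 was below those of fl/fl replicates 1, 3 and 7, at 0.19, 0.24 and 0.14. The T cell markers of all 6 iADKO libraries were above those of all fl/fl libraries, by averages of 0.41 to 0.59 against -0.37 to 0.31.

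**Figure D5:**
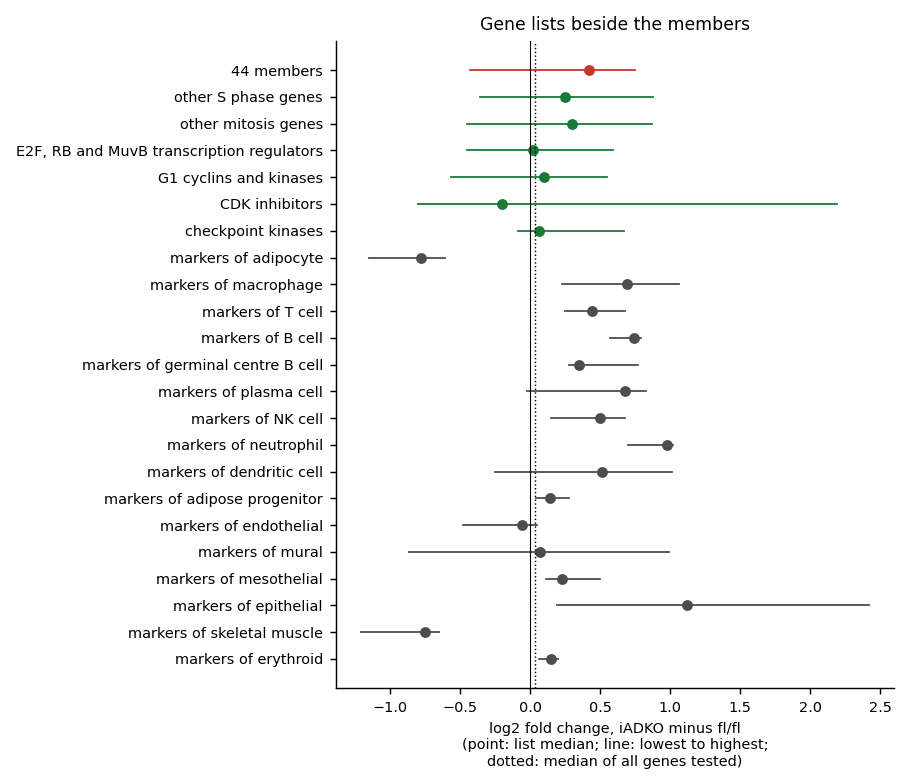
Median log2 fold change (points) and lowest to highest value (lines) of the 44 members, of the other pathway lists and of the cell type marker lists, with the median of all genes tested as a dotted line. The members' median is 0.42, between those of the adipocyte markers (-0.78) and of the macrophage markers (0.69).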

How the data were processed

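The authors deposited raw counts per gene for 33618 Ensembl identifiers, without normalization, and log2 values made from them by DESeq2's regularized log (rlog). Per the study's methods, mRNA libraries that keep strand were read from both ends, aligned with STAR 2.7.11a to mm39 after FastQC 0.12.1 and tested with DESeq2. The counting tool and annotation are not given in the sources used here. Members and lists were chosen with earlier results of these data known. In R 4.3.3, edgeR 4.0.16 (filterByExpr, TMM, robust quasi-likelihood fit, genotype only) compared 7 fl/fl with 6 iADKO libraries, with Benjamini-Hochberg adjustment over 16753 genes and a threshold of 0.05. Standard errors were derived from the fold change and its test statistic. Log2 CPM used a prior count of 2. The script was tested on simulated data. For 10 members, mean log2 CPM was compared by exact two-sided permutation over all 1716 splits, without adjustment. Coordinates, lengths and promoters are from GENCODE vM39 on GRCm39, which is mm39. Of the members, 19 overlap a gene on the opposite strand, and *Anln* overlaps 1 on the same strand.

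The genes described in full were *Mki67*, *Top2a*, *Cdk1*, *Ccnb1*, *Pcna*, *Mcm2* and the 6 members with the smallest adjusted p. In the other pathway lists, the 3 highest and 3 lowest calls were named, and every call among G1 genes, inhibitors and E2F, RB and MuvB regulators. *Lmna*, *Chek1* as the only call of its list and genes that overlap members were named besides. A result that the rule would name is not reported here. Alternatives were DESeq2 1.42.0, its size factors in edgeR, limma 3.58.1 on the deposited log2 values, other filters, replicate and number-series blocks, and each library left out. Total counts without TMM, leaving out fl/fl replicate 5 with iADKO replicate 6, and fits within number series were chosen after seeing the data.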

Additional observations from a re-analysis of the deposited data

Results flagged for a closer look

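In each genotype, a member was listed here when its lowest or highest library lay far from the rest (Dixon's test at 95%). Of 88 groups so tested 8 met this, and chance alone flags about 1 in 20. In 6 of the 8, iADKO replicate 6 was far below the other iADKO libraries, with *Rrm1* at 34.1 CPM (next 39.7), *Uhrf1* at 5.16 (next 7.54), *Ccnb2* at 1.13 (next 2.50), *Bub1b* at 6.48 (next 9.05), *Mki67* at 18.0 (next 25.6) and *Top2a* at 9.72 (next 14.1). In the other 2, fl/fl replicate 5 was far above the other fl/fl libraries, with *Rrm1* at 40.7 CPM (next 34.0) and *Bub1b* at 9.97 (next 7.51). These are the libraries nearest the other genotype in adipocyte and macrophage markers. Without iADKO replicate 6, 26 members were higher and 1 lower, in a fit that called 34.0% of all genes, 15.9% higher and 18.1% lower.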

How the results depend on the processing

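DESeq2's Wald test, its size factors, another filter on low counts or none, and limma on the deposited log2 values gave 18 to 24 members higher and 1 lower. These fits called 30.4% to 34.1% of the genes tested, and 11.9% of 33618 genes without a filter. The members' median was 0.19 with limma on rlog values, a scale that shrinks the differences of low counts. A fit with the replicate number as a block leaves out fl/fl replicate 7, which has no iADKO library of the same number. It gave 4833 calls, with 23 members higher and 1 lower, and 1 other S phase gene lower. Of these 24 member calls, 22 were shared with the fit without the block (*Cenpe* and *Top2a* gained, *Bub1b* and *Ccna2* lost). Same-numbered libraries deviated together in 3 of 6 pairs (correlation over 0.1, from -0.0265 to 0.217), so the number was not taken as a pairing. With the number series as a block, 1986 genes were called, 4.68% of all genes higher and 7.17% lower. There, 10 members were higher and 0 lower. Of the other S phase genes 6 were higher and 1 lower, and of the other mitosis genes 3 were higher and 1 lower. On total counts without TMM, 8673 genes were called, 44.2% of all genes higher and 7.62% lower. Of the members 36 were higher, of the other S phase genes 30 and of the other mitosis genes 43, with 0 lower in each list. Without a filter on low counts, 10 other mitosis genes were higher and 1 other S phase gene lower, in a fit that called 4.83% higher and 7.09% lower. Within the larger number series, 10 members, 6 other S phase and 7 other mitosis genes were higher, and 1 other S phase and 0 other mitosis genes lower. That fit called 12.6% of all genes higher and 15.4% lower. Within the smaller one, 0 genes of any list were called in either direction. With fl/fl replicate 5 and iADKO replicate 6 both left out, 2 members and 2 other mitosis genes were lower.

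Leaving out 1 library at a time gave 3998 to 6604 calls, 16 (without iADKO replicate 3) to 26 members higher, 0 to 1 lower, a members' median of 0.36 to 0.45, 12 to 18 other S phase genes higher and 1 to 3 lower, and 10 to 21 other mitosis genes higher and 1 to 2 lower. Of the 24 called members, 16 passed in all 13 such fits. Of these, 10 also passed in every other fit tried, apart from the fits within a number series. Those other fits include the one without fl/fl replicate 5 and iADKO replicate 6. Of 967 values of members, 863 kept their direction and side of the threshold, 67 lost and 31 gained a call, and 6 reversed. None of the reversed values was called. They were *Tyms* (-0.00739 without fl/fl replicate 5 to 0.0595 without fl/fl replicate 7, and -0.0231 without both fl/fl replicate 5 and iADKO replicate 6), *Plk1* (-0.0111 with the number series) and *Kif23* (-0.14 with the number series, -0.0213 without fl/fl replicate 2, -0.0287 without iADKO replicate 5, up to 0.12 without fl/fl replicate 3). In the 250 bases before the start, 11 members had a CHR, 4 an E2F site and 9 both a CCAAT box and a CHR. Of all protein-coding genes tested, 14.3% had a CHR there, 2.95% an E2F site and 5.35% both a CCAAT box and a CHR. The cause of these changes was not tested. The lowest count of a member in a library was 8, for *Bub1*.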
